A study of Mus musculus with 19 samples.

Results

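PGC-1alpha and the factors that work with it to make mitochondria were examined in the striatum of Huntington disease (HD) knock-in (KI) mice. The set was chosen by name, with earlier results of these data known, and holds 10 of the 54232 genes counted. It comprises the coactivators Ppargc1a (PGC-1alpha), Ppargc1b (PGC-1beta) and Pprc1 (PRC), the nuclear receptors Esrra and Esrrg, the nuclear respiratory factors Nrf1 and Gabpa, and the mitochondrial transcription proteins Tfam, Tfb2m and Polrmt. Striatal RNA of C57/BL/6 mice at 6 months of age was sequenced from 7 WT mice and from 4 mice of each KI genotype (KI-96, KI-571, KI-FL), and reads were counted per gene. KI-FL mice carry full-length mutant HTT with an expanded polyQ repeat in 1 allele of the mouse Htt gene. In KI-96 and KI-571 mice this mutant allele was truncated with CRISPR/Cas9, beside a WT allele. The mutant allele encodes a shorter or a longer N-terminal fragment with the same repeat, under the endogenous promoter in every cell that uses Htt. On the study's western blots, the mutant fragment of both lines had the size of the smallest one in KI-FL brain. The study concluded that a fragment like exon 1 HTT is stable in all its KI mice. By the study's methods, the KI-571 line came from 1 founder and the KI-96 line from 3. The labels give neither sex nor litter. The labels number the replicates of a genotype without tying them to animals, so each library is called a mouse here and p-values measure only the spread between libraries, part of which may be technical. The study's methods state fewer mice in a genotype than there are WT libraries, so that some WT libraries may share an animal, and n = 7 counts libraries. An outlying WT library, which is not named, was dropped in the study's own tests, whereas all 7 labelled WT libraries were kept here.

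PGC-1alpha does not bind DNA. It is recruited by transcription factors, among them the estrogen-related receptors and the nuclear respiratory factors, and raises the transcription of nuclear genes for the respiratory chain and for the proteins that copy and transcribe mitochondrial DNA. Ppargc1a itself is induced through CREB, and mutant HTT has been reported to interfere with this induction, so that PGC-1alpha is often discussed in HD. In the brain it is most abundant in GABAergic neurons, in particular in parvalbumin interneurons. Nrf1 here is nuclear respiratory factor 1 and Gabpa is the DNA-binding subunit of nuclear respiratory factor 2, and neither is one of the stress response genes Nfe2l1 and Nfe2l2, which are often given the same short names.

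The proximal promoters show how the members can be linked to each other, and short stretches around the matched letters are printed for that reason. The windows, taken from RefSeq on GRCm38.p6, run from 250 bases before to 50 bases after each transcription start, and 9 of the 10 members have at least 1 entry, with 13 windows in all. Both strands were searched for GCGCATGC (the core letters of the nuclear respiratory factor 1 site), CCGGAAG (an ETS site, the kind that GABP binds), TGACG (the half-site of the cAMP response element) and AAGGTCA (the estrogen-related receptor half-site). No motif contains the letters of another. Positions count the start as 1, capitals mark the matched letters, and each sequence is written 5′ to 3′ on the strand of its gene.
Ppargc1a CRE half-site, chr5:51567760-51567784, minus strand, -49 to -45: tgccctcccaCGTCActgagctcca
Esrra NRF-1 letters, chr19:6921825-6921852, minus strand, -34 to -27: cccctgttttGCATGCGCaggccggccc
Tfb2m NRF-1 letters, chr1:179546246-179546273, minus strand, 14 to 21: taggtcgttcGCATGCGCcattcgtaat
Polrmt NRF-1 letters, chr10:79746697-79746724, minus strand, -133 to -126: gagtatttctGCGCATGCtctcttgccg
Gabpa ETS letters, chr16:84835021-84835047, plus strand, -93 to -87: agggtaagtgCTTCCGGgtccctcagc
Tfam ETS letters, chr10:71238075-71238101, minus strand, -47 to -41: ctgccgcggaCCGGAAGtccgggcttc
Polrmt ETS letters, chr10:79746608-79746634, minus strand, -43 to -37: cctaagagcgCTTCCGGcagtcgcaga

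The NRF-1 letters stood in the promoters of Esrra, Tfb2m and Polrmt, and in 2.71% of all 32851 windows. The ETS letters stood in those of Gabpa, Tfam and Polrmt, and in 8.86% of all windows, so that Polrmt, the RNA polymerase of mitochondria, held both. Ppargc1a held the CRE half-site, which was found in 20.8% of all windows. The estrogen-related receptor letters were in no window of a member and in 4.72% of all windows. A match of letters is a description and not a bound site.

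The libraries held 12669809 to 26388542 reads on genes (median 18202412), and WT replicates 5 to 7 were the deepest with at least 23457270. All 10 members passed the low-count filter and had 225 reads or more in each mouse. Levels are given in CPM, the count of a gene scaled to a common library size with TMM factors. All 12 striatal projection neuron markers were present in each mouse, and Ppp1r1b, which encodes DARPP-32, had at least 887.5 CPM. KI-FL replicate 4 stood apart, with 3186 of the 18521 tested genes at 0 against 10 to 222 in the other mice. Reads outside annotated genes made up 24.2% of the library of KI-96 replicate 3, against 11.1% to 15.99% elsewhere. Xist was at 886 CPM or more in all 4 KI-96 mice, in WT replicate 1 and in KI-FL replicate 2, while no other mouse had more than 5.05 CPM, so that the KI-96 genotype and the Xist level can hardly be told apart. Summed choroid plexus markers (5 genes) reached 3013 to 5312 CPM in KI-571 replicates 2 and 4 and KI-FL replicate 1, against at most 405.9 CPM elsewhere. Cortical neuron markers (7 genes) summed to 3072 CPM in WT replicate 3 and to 2041 CPM in KI-571 replicate 2, the highest of the other mice. Their mean log2 (CPM + 1) was 6.55 and 5.51 in these mice, against at most 3.87 elsewhere. Red blood cell markers (5 genes) summed to 163 to 482.6 CPM in KI-571 and 43.5 to 103.3 CPM in KI-FL mice. WT mice lay at 79.5 to 214.3 CPM and KI-96 mice at 86.6 to 141.2 CPM. Of these 5 markers, edgeR called 2 higher in KI-571 against WT and 4 higher in KI-571 against KI-FL. Htt, the targeted gene, was at 168 to 194.7 CPM in WT, 143.3 to 239.9 in KI-96, 103.9 to 141 in KI-571 and 136.5 to 179 in KI-FL mice. All 4 KI-571 mice lay below the WT range (log2 fold change -0.53, edgeR adjusted p = 0.0959). A count per gene does not separate its alleles.

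To see how strongly each regulator is expressed in the striatum, levels were divided by the exon length of each gene. Esrra, which encodes the receptor ERRalpha that PGC-1alpha acts on most directly, was the most abundant in WT mice with 17.5 ± 2.04 CPM per kb (SD, n = 7), above the other 9 members in every WT mouse. Nrf1 was the least abundant with 2.04 ± 0.205 CPM per kb, and no WT mouse with Nrf1 reached the lowest value of any other member. Between them lay Ppargc1a (7.83 ± 1.09), Esrrg (7.51 ± 2.64), Polrmt (7.29 ± 0.318), Tfb2m (6.95 ± 0.268), Tfam (6.65 ± 0.504), Ppargc1b (5.56 ± 1.095), Gabpa (5.45 ± 0.598) and Pprc1 (4.22 ± 0.650), all in CPM per kb. The ranges of neighbours among these 8 overlapped over the WT mice, although Gabpa lay above Pprc1 in each of the 7 mice. Among all tested genes ranked by level per kb, Esrra stood at percentile 85.4, Pprc1 at 54.3 and Nrf1 at 39.5. The spread between WT mice also differed from gene to gene. The coefficient of variation was 3.86% for Tfb2m and 4.36% for Polrmt, and 35.2% for Esrrg.

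**Figure D1:**
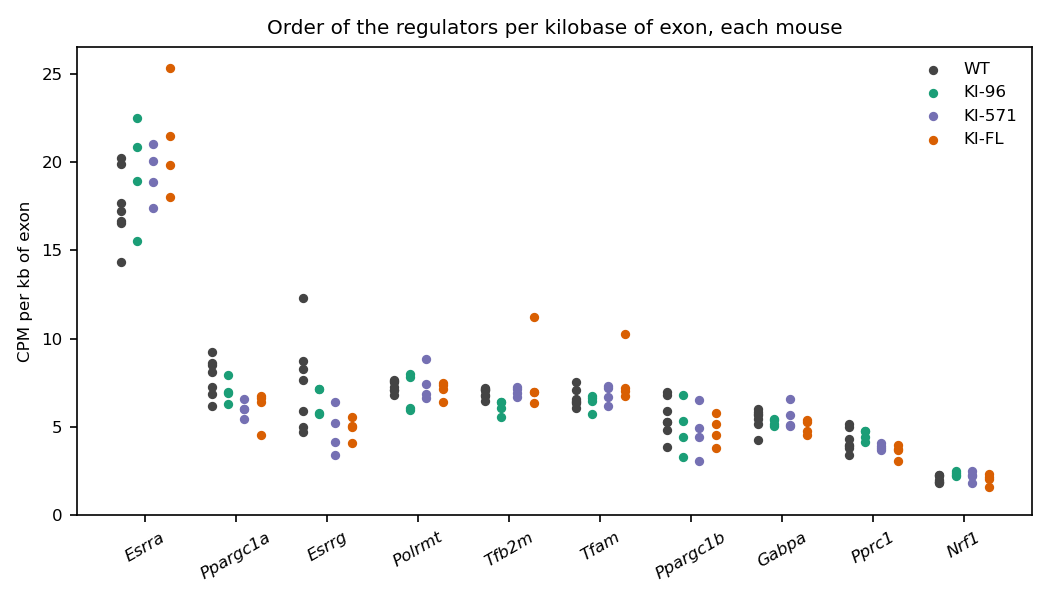
Levels of the 10 regulators in CPM per kb of exon (vertical axis), ordered by their WT mean, with 1 point per mouse and 1 colour per genotype. Esrra lies apart from the other 9 genes in WT mice, between 14.3 and 20.2 CPM per kb, and the separate high points of Tfb2m and Tfam belong to KI-FL replicate 4.

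The question the genotypes pose is whether full-length and truncated mutant Htt alleles are accompanied by other levels of these regulators. Against WT, 0 of the 10 members passed an adjusted p of 0.05 by the edgeR quasi-likelihood test in KI-96, KI-571 or KI-FL mice or in the mean of the 3 KI genotypes. Few genes did so at all, namely 0.027% of the 18521 tested genes in KI-96, 0.0324% in KI-571, 0.194% in KI-FL and 0.054% in all KI mice. DESeq2 also called 0 members in each of these comparisons, where it called 0.151%, 0.688%, 2.75% and 1.82% of the genes it tested. Without adjustment, 0, 2, 4 and 3 of the 10 members were under 0.05 in the edgeR test, and 7.45%, 7.72%, 16.7% and 12.9% of all tested genes were. The median log2 fold change of the 10 members was -0.06, 0.02, -0.08 and -0.04 in these comparisons, against -0.02, -0.01, -0.03 and -0.02 over all tested genes. The comparisons share the 7 WT mice and are not independent of each other.

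**Figure D2:**
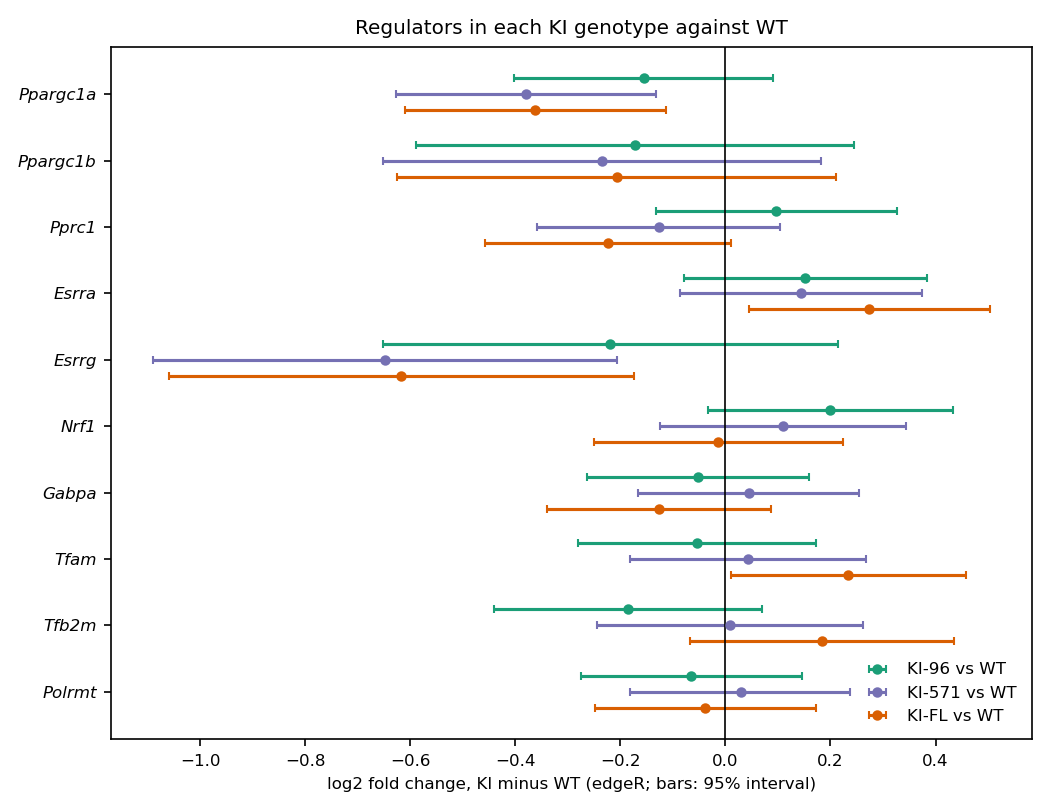
Log2 fold change of each regulator in the KI-96, the KI-571 and the KI-FL mice against WT from edgeR (horizontal axis, bars are 95% intervals). Ppargc1a, Ppargc1b and Esrrg lie below 0 in all 3 genotypes and Esrra above 0, and none of the 30 differences passed the adjusted threshold.

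Ppargc1a (ENSMUSG00000029167.13, chromosome 5, 51454250 to 51567726, minus strand of GRCm38 in the GENCODE annotation) encodes the coactivator itself. It was at 47.7, 40.8, 45.4, 61.0, 53.6, 56.0 and 56.7 CPM in WT replicates 1 to 7. It was at 45.6, 45.9, 52.4 and 41.5 CPM in the KI-96 mice, at 39.8, 35.9, 43.5 and 39.6 CPM in the KI-571 mice, and at 43.8, 42.4, 44.3 and 30.02 CPM in the KI-FL mice. The 4 WT mice with the highest levels lay above all 12 KI mice, and each KI genotype overlapped the lower part of the WT range. The log2 fold change against WT was -0.16 in KI-96 (SE 0.12, adjusted p = 0.797), -0.38 in KI-571 (SE 0.12, adjusted p = 0.301), -0.36 in KI-FL (SE 0.12, adjusted p = 0.148) and -0.30 in all KI mice (SE 0.09, adjusted p = 0.156). These correspond to levels that were 10.3%, 23.1%, 22.2% and 18.7% lower as fitted values, none of which passed the adjusted test. By DESeq2 the adjusted p was 0.802, 0.17, 0.074 and 0.071. Lower RNA per cell and fewer cells that express the gene cannot be told apart in tissue RNA.

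As a single gene, Ppargc1a was also compared by an exact permutation test, two-sided, on log2 CPM, over all 330 splits of 4 mice against 7, which cannot give a p below 0.00303. The mean difference was -0.15 in KI-96 (exact p = 0.224), -0.37 in KI-571 (exact p = 0.0121) and likewise -0.37 in the KI-FL group (exact p = 0.0273). Adjusted over these 3 exact tests the values were 0.224, 0.0363 and 0.041. This adjustment leaves out the other members, and the members were chosen with earlier results of these data known. The difference in KI-FL mice depended on KI-FL replicate 4, the mouse at 30.02 CPM, without which it was -0.23 (exact p = 0.108), and on WT replicates 4, 5, 6 and 7, without each of which the exact p lay between 0.0524 and 0.0571. Against WT replicates 1 to 4 alone, whose depth was nearer to that of the KI mice, the differences were -0.06 (exact p = 0.714), -0.28 (exact p = 0.0571) and -0.28 (exact p = 0.2), and 4 mice against 4 cannot give a p below 0.0143.

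Ppargc1a is richest in interneurons, so the markers of these cells are given beside it. Of the 7 markers, 6 had a fold change below 0 in KI-571 and 5 in KI-FL mice, 0 were called, and their summed level was 532 to 745 CPM in WT, 471 to 734 in KI-96, 391 to 633 in KI-571 and 424 to 595 in KI-FL mice. Sst, with at least 22.9 CPM, and Pvalb, with at least 30.5 CPM, were detected in every mouse. The part of these cells in the level of Ppargc1a was not tested. When the 3 mice high in choroid plexus markers were left out, an alternative chosen after seeing the data, the log2 fold change of Ppargc1a was -0.32 in KI-571 and -0.42 in KI-FL mice. This left KI-571 replicates 1 and 3 and KI-FL replicates 2, 3 and 4, the last being the mouse at 30.02 CPM. With only KI-FL replicate 4 left out, the value in KI-FL mice was -0.25.

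Ppargc1b, the close relative of PGC-1alpha, ranged from 15.4 to 27.7 CPM in WT mice (median 21.1), 13.1 to 27.1 in KI-96, 12.1 to 26.0 in KI-571 and 15.2 to 23.1 in KI-FL mice. The groups overlapped almost fully, with log2 fold changes of -0.17, -0.24 and -0.21 and edgeR adjusted p of 0.883, 0.9 and 0.621. Without the 3 mice high in choroid plexus markers the value in KI-571 mice turned to 0.03. Pprc1, a coactivator that is induced when cells enter growth, was at 21.3 to 32.4 CPM in WT mice (median 25.0). It was at 26.1 to 29.8 CPM in KI-96, 23.2 to 25.5 in KI-571 and 19.3 to 24.9 in KI-FL mice. All 4 KI-96 mice lay above all KI-FL and KI-571 mice, and 1 KI-FL mouse alone lay outside the WT range. The share of all tested genes that separate genotypes in this way was not determined, here or for any other gene named. The log2 fold change of Pprc1 was 0.10 in KI-96 (adjusted p = 0.883), -0.13 in KI-571 (adjusted p = 0.908) and -0.22 in KI-FL mice (adjusted p = 0.319). The KI-96 value was 0.26 against WT replicates 1 to 4 alone and 0.285 with Xist as a covariate. The Xist fit rests mainly on WT replicate 1 and KI-FL replicate 2, whose Xist level differed from the rest of their genotype. Pprc1 shares 177 exon bases with Ldb1 on the other strand, and Esrra 73 with Trmt112, Gabpa 397 with Atp5j. The strand setting of the counting is not given in the sources used here, so that reads in these stretches are uncertain.

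**Figure D3:**
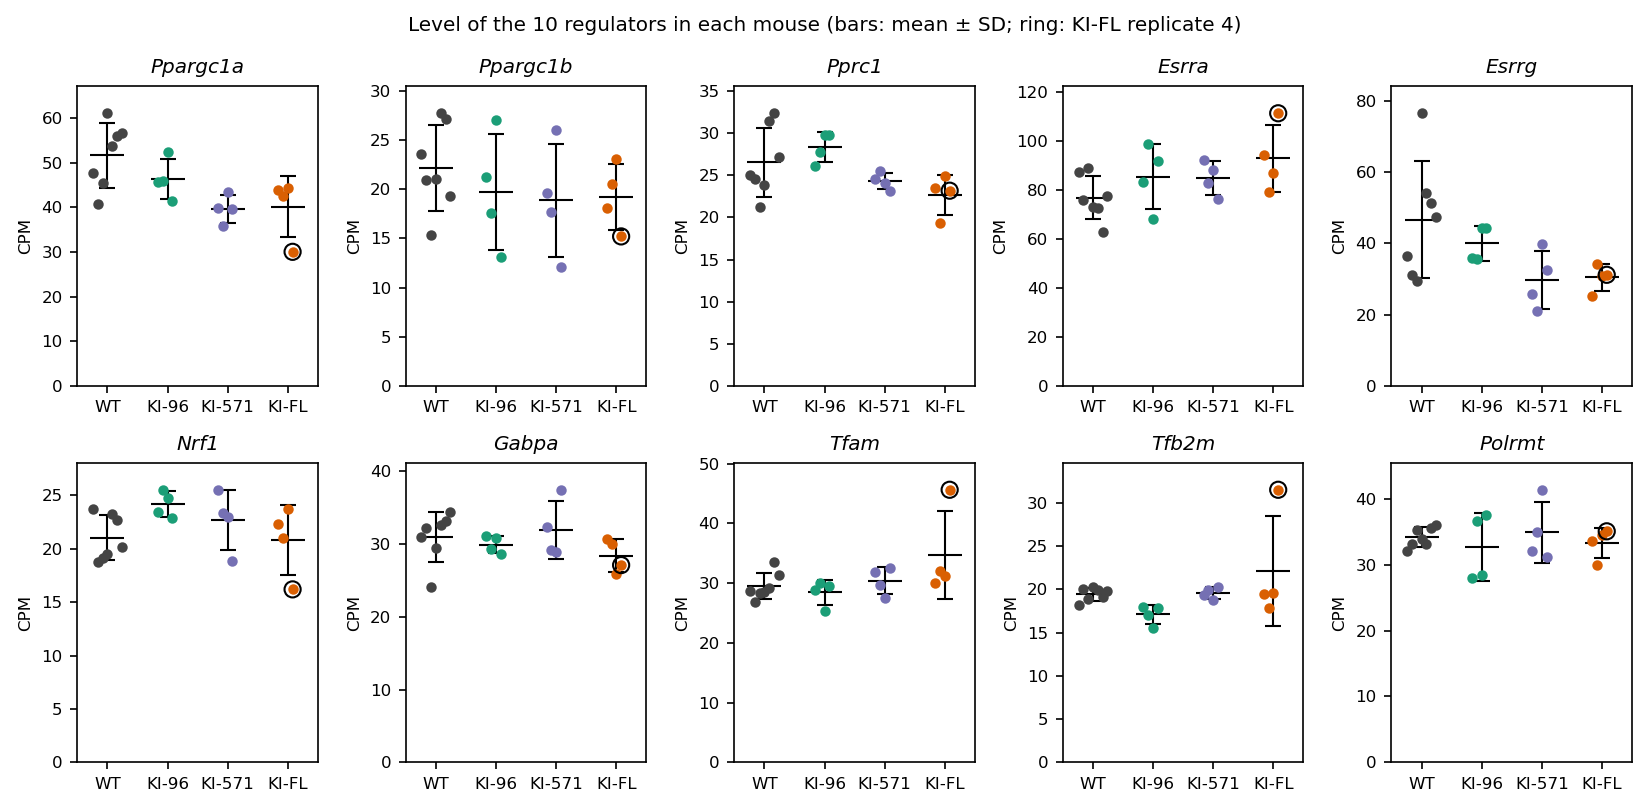
CPM of each of the 10 regulators (vertical axes, starting at 0) in every mouse by genotype, with black marks for the mean and SD of 7 WT or 4 KI mice and a ring around KI-FL replicate 4. Ringed points are the lowest of Ppargc1a at 30.02 CPM and the highest of Tfam at 45.6 CPM and Tfb2m at 31.5 CPM.

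The receptors through which PGC-1alpha acts on respiratory chain genes differed in direction. Esrrg, which encodes ERRgamma, a receptor active without a known natural ligand, was at 36.5, 31.2, 29.3, 76.6, 54.1, 51.3 and 47.5 CPM in WT replicates 1 to 7. It was at 35.9, 35.7, 44.4 and 44.3 CPM in KI-96, at 25.8, 21.0, 39.8 and 32.5 in KI-571, and at 25.3, 34.4, 31.0 and 31.2 in KI-FL mice. WT replicates 4 to 7 lay above every KI mouse, whereas WT replicates 1 to 3 lay among them. The log2 fold change was -0.22 in KI-96 (adjusted p = 0.856), -0.65 in KI-571 (SE 0.21, adjusted p = 0.342), -0.62 in KI-FL (SE 0.21, adjusted p = 0.163) and -0.49 in all KI mice (SE 0.16, adjusted p = 0.184). Without WT replicate 4, the mouse at 76.6 CPM, these were -0.06, -0.49, -0.47 and -0.34.

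Esrra was at 62.9 to 88.8 CPM in WT mice (median 75.7). It was at 83.0, 98.6, 68.0 and 91.6 CPM in KI-96, at 92.2, 82.9, 87.9 and 76.4 in KI-571, and at 94.1, 79.1, 86.9 and 111 in KI-FL mice. The groups overlapped, since 7 of the 12 KI mice lay inside the WT range and the other 5 above it. The log2 fold change was 0.15, 0.14, 0.27 and 0.19 in KI-96, KI-571, KI-FL and all KI mice (SE 0.11, 0.11, 0.11 and 0.09), with adjusted p of 0.788, 0.873, 0.221 and 0.359. Without KI-FL replicate 4 the value in KI-FL mice was 0.175.

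**Figure D4:**
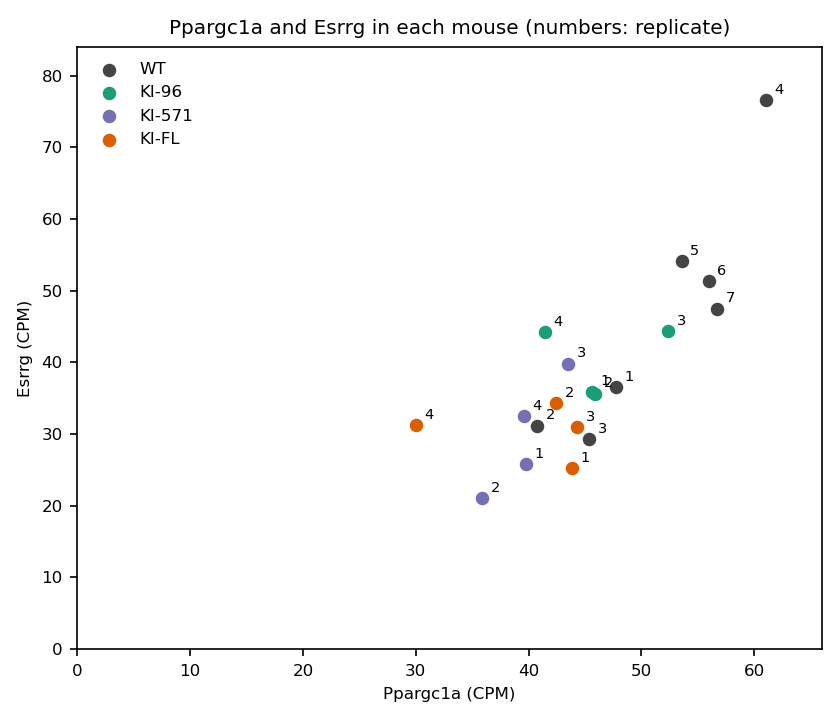
Esrrg against Ppargc1a in each mouse (both in CPM, axes from 0, numbers give the replicate, colours the genotype). WT replicates 4 to 7 lie at the upper right, at 47.5 CPM or more on both axes, and KI-FL replicate 4 lies at the left with 30.02 CPM of Ppargc1a.

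The nuclear respiratory factors, which bind the promoters of respiratory chain genes directly, differed from WT by at most 0.20 on the log2 scale, the value of Nrf1 in KI-96 mice. Nrf1 was at 18.7 to 23.7 CPM in WT mice (median 20.2). It was at 23.5, 25.5, 24.8 and 22.9 CPM in KI-96, at 25.5, 23.3, 23.0 and 18.9 in KI-571, and at 22.3, 21.0, 23.8 and 16.2 in KI-FL mice. In KI-96, 2 mice lay above the highest WT mouse and 2 within the upper part of the WT range. The log2 fold change was 0.20 (95% interval -0.03 to 0.43, edgeR adjusted p = 0.713). With Xist as a covariate the value was 0.14, in a fit that rests mainly on WT replicate 1 and KI-FL replicate 2. The fold change was 0.11 in KI-571 mice (adjusted p = 0.937) and under 0.1 in size in KI-FL mice. Gabpa ranged from 24.1 to 34.3 CPM in WT mice, 28.6 to 31.0 in KI-96, 28.9 to 37.4 in KI-571 and 25.8 to 30.7 in KI-FL mice. Its largest difference was -0.13 in KI-FL mice (95% interval -0.34 to 0.09, adjusted p = 0.542), and that in both other genotypes was under 0.1 in size.

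Of the genes for proteins that work on mitochondrial DNA itself, Tfam and Tfb2m were highest in the same mouse, KI-FL replicate 4. Tfam, which packages mitochondrial DNA and starts its transcription, was at 26.9 to 33.6 CPM in WT mice (median 28.7), 25.4 to 30.02 in KI-96 and 27.6 to 32.6 in KI-571 mice. In the KI-FL mice it was at 30.01, 32.1, 31.2 and 45.6 CPM, so that 3 mice lay within the WT range and replicate 4 above it. The log2 fold change of 0.23 in KI-FL mice (95% interval 0.01 to 0.46, adjusted p = 0.279) was 0.07 without replicate 4.

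Tfb2m, the factor with which the mitochondrial RNA polymerase opens its promoters, varied little among WT mice, at 18.2 to 20.2 CPM (median 19.8). It was at 17.97, 17.1, 15.6 and 17.9 CPM in KI-96, at 19.4, 20.0, 18.7 and 20.3 in KI-571, and at 19.5, 17.8, 19.6 and 31.5 in KI-FL mice. All 4 KI-96 mice lay below the lowest WT and the lowest KI-571 mouse, while the other KI genotypes overlapped WT. The log2 fold change was -0.19 in KI-96 mice (95% interval -0.44 to 0.07, adjusted p = 0.765). With Xist, which was high in the same 4 mice, as a covariate it was -0.004. Within genotypes Xist set apart only WT replicate 1 and KI-FL replicate 2, so that this fit rests mainly on those mice. In KI-FL mice the value of Tfb2m in the main fit was 0.18 (edgeR adjusted p = 0.452), and -0.04 without replicate 4. Polrmt ranged from 31.99 to 36.01 CPM in WT mice, 27.9 to 37.6 in KI-96, 31.1 to 41.4 in KI-571 and 29.9 to 35.1 in KI-FL mice. Its mean differed from WT by under 0.1 on the log2 scale in each genotype.

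To ask whether the length of mutant HTT matters, the KI genotypes were compared with each other. The Xist level lay at 885.6 CPM or above in KI-96 and at 5.05 CPM or below in KI-571 mice. Among KI-FL mice only replicate 2 had a high level, at 1210 CPM. Comparisons with KI-96 therefore do not separate the length of mutant HTT from the Xist level. By edgeR 0 of the 10 members were called in KI-96 against KI-FL, in KI-571 against KI-FL and in KI-96 against KI-571, where 0%, 0.0864% and 0.0054% of all tested genes were. DESeq2 called 0 members as well and 0.205%, 0.476% and 0.189% of the genes. In KI-96 against KI-FL, where edgeR called no gene at all, 1648 genes were under an unadjusted p of 0.05 and DESeq2 called 38. The 4 KI-96 mice lay above the 4 KI-FL mice for Pprc1, with a log2 fold change of 0.32 (95% interval 0.06 to 0.58, adjusted p = 0.489). Tfb2m was at -0.37 in this comparison (95% interval -0.66 to -0.08, adjusted p = 0.469) and Tfam at -0.29 (95% interval -0.54 to -0.03, adjusted p = 0.534), and without KI-FL replicate 4 they were at -0.15 and -0.13. Ppargc1a differed by 0.21 in KI-96 against KI-FL (95% interval -0.07 to 0.48), or by 0.09 without KI-FL replicate 4, and by 0.22 in KI-96 against KI-571 mice (95% interval -0.05 to 0.50). For Esrrg these values were 0.40 (95% interval -0.09 to 0.89) and 0.43 (95% interval -0.06 to 0.92). In KI-571 against KI-FL all members lay between -0.19 and 0.17, and the interval for Ppargc1a ran from -0.29 to 0.26.

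Across mice, with the mean of each genotype subtracted, the gene whose log2 CPM followed Ppargc1a most closely was Gm42303, an antisense RNA, with r = 0.865 over 19 mice. Rcan3, which encodes a regulator of calcineurin, came next with 0.855, followed by the processed pseudogene A930017M01Rik with 0.838, 4930412L05Rik with 0.832 and Frem3 with 0.823. Without KI-FL replicate 4 these were 0.804, 0.787, 0.758, 0.755 and 0.747. Gm42303 and 4930412L05Rik had mean levels of 2.22 and 0.423 CPM. Among the members Esrrg was the closest, with r = 0.604 and place 969 of 18520 genes, and with 0.742 and place 26 without KI-FL replicate 4. Within the 7 WT mice its r was 0.92 and within the 12 KI mice 0.226. Tfb2m had r = -0.619 over all mice and -0.354 without KI-FL replicate 4. Tfam had -0.422 and -0.069, and Esrra -0.577 and -0.471. All values come from the same libraries, which share depth and tissue content between genes, and 2322 genes had r above 0.5 with Ppargc1a.

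The genes around the regulators were taken from 7 lists of the pathway, in which 0 genes were called against WT in any KI genotype by edgeR with all 19 mice in the model. Other settings called a few. With only KI-FL and WT in the model, edgeR called Lonp1, Cox4i1, Ndufa9, mt-Nd4l, mt-Co2, mt-Co3 and mt-Atp6, all higher in KI-FL mice. The setting called far more genes over the whole table than the main model did, with the counts given in the last section. DESeq2 called Ucp2 in KI-571, Ppara, Rxra, Lonp1, Ndufa9 and mt-Nd4l in KI-FL, and Stk11, Lonp1, Ndufa9 and mt-Nd4l in all KI mice. Over all the genes it tested, DESeq2 called 0.688% in KI-571, 2.75% in KI-FL and 1.82% in all KI mice. Whether the lists hold more calls than these shares was not tested. Genes named here for these calls alone were chosen after their values were seen. Among the 29 regulators of PGC-1alpha (kinases, CREB coactivators, deacetylases), 19, 18 and 22 had a fold change above 0 in the KI-96, the KI-571 and the KI-FL mice, with medians of 0.11, 0.05 and 0.10. Without KI-96 replicate 3 the KI-96 count was 16 of 29, with a median of 0.01. Stk11, which encodes LKB1, a kinase that activates AMPK, had a mean of 82.9 CPM in WT and 97.9, 103 and 101 CPM in these genotypes. WT mice ranged from 75.4 to 92.0 CPM, below all KI-96 and KI-FL mice, and the log2 fold change in all KI mice was 0.28 (SE 0.07, adjusted p = 0.0913 by edgeR and 0.0121 by DESeq2). Crtc1, a coactivator of CREB, had a mean of 269 CPM in WT and 327 to 330 CPM in the KI genotypes (log2 fold change 0.29, adjusted p = 0.193). Of the 15 other partner receptors and factors 8, 8 and 10 lay above 0, and 7 in KI-96 mice without replicate 3. Rxra was at 38.8 to 46.7 CPM in WT and 46.7 to 64.0 CPM in KI-FL mice (log2 fold change 0.35, adjusted p = 0.0791 by edgeR and 0.017 by DESeq2). Ppara, a fatty acid receptor, was at 2.98 CPM in WT and 1.36 CPM in KI-FL mice (log2 fold change -1.14, adjusted p = 0.116 by edgeR and 0.0213 by DESeq2). Ppard had a log2 fold change of 0.20 in all KI mice (adjusted p = 0.393).

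Among 29 tested genes of mitochondrial DNA maintenance and expression, 11, 15 and 13 lay above 0, with medians of -0.10, 0.005 and -0.01. Without KI-96 replicate 3 the KI-96 median was -0.02. Lonp1, the protease of the mitochondrial matrix that degrades TFAM, had a mean of 78.0 CPM in WT and 89.3, 92.5 and 95.3 CPM in the KI-96, the KI-571 and the KI-FL mice. KI-FL mice, at 90.4 to 104.7 CPM, lay above the WT range of 71.5 to 84.6 CPM, and the log2 fold change in all KI mice was 0.24 (SE 0.06, adjusted p = 0.111 by edgeR and 0.0153 by DESeq2). Mterf3, a repressor of mitochondrial transcription, was at -0.41 in all KI mice (SE 0.13, adjusted p = 0.197), with means of 20.6 CPM in WT and 13.8 CPM in KI-FL mice.

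Of 41 tested nuclear genes for the respiratory chain and energy supply 13, 25 and 29 lay above 0, with medians of -0.09, 0.04 and 0.06. The KI-96 value depended on KI-96 replicate 3, in which these genes summed to 5644 CPM against 7184 CPM or more in every other mouse. Without it 27 of the 41 lay above 0, with a median of 0.04. Without the 3 mice high in choroid plexus markers, 19 lay above 0 in KI-571 mice (median -0.014) and 25 in KI-FL mice (median 0.035). Ndufa9, a subunit of complex I, had a mean of 59.6 CPM in WT and 69.6, 69.5 and 77.3 CPM in the KI genotypes (log2 fold change 0.27 in all KI mice, adjusted p = 0.149 by edgeR and 0.0495 by DESeq2). Ucp2, an uncoupling protein of the inner membrane, was at 14.0 to 21.3 CPM in WT and 19.2 to 43.9 CPM in KI-571 mice (log2 fold change 0.81, adjusted p = 0.207 by edgeR and 0.0415 by DESeq2). The SD of Ucp2 was 13.2 CPM in KI-571 against 2.95 CPM in WT mice. The KI-571 group holds replicates 2 and 4, high in choroid plexus markers, and their part in the Ucp2 value was not tested. Among the 8 antioxidant genes 2, 7 and 6 lay above 0. Without KI-96 replicate 3 the KI-96 count was 6, without KI-FL replicate 4 the KI-FL count was 4, and without the mice high in choroid plexus markers the KI-571 count was 5 and the KI-FL count 4. Cat, which encodes catalase, was at -0.28 in KI-FL mice (adjusted p = 0.239), and Gpx1, a glutathione peroxidase, at 0.22 in all KI mice (adjusted p = 0.535).

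The 5 neuronal targets of PGC-1alpha (Pvalb, Syt2, Cplx1, Nefh and Inpp5j) all had fold changes below 0 in KI-571 and in KI-FL mice, with medians of -0.37 and -0.30, against -0.01 and -0.03 over all tested genes. In KI-96 mice 4 of 5 did, with a median of -0.19, and 2 of 5 with a median of 0.007 without KI-96 replicate 3. Syt2, a calcium sensor of transmitter release, was at 111 to 198 CPM in WT, 94.7 to 149 in KI-96, 87.5 to 132 in KI-571 and 104 to 138 in KI-FL mice. The ranges overlapped in each genotype (log2 fold change -0.49 in KI-571, SE 0.14, adjusted p = 0.263). Nefh, the heavy neurofilament, had means of 91.9 CPM in WT and 65.9 and 64.9 CPM in KI-571 and KI-FL mice (log2 fold changes -0.48 and -0.50, adjusted p = 0.498 and 0.197). Without KI-FL replicate 4 the median of the list in KI-FL mice was -0.21, and without the 3 mice high in choroid plexus markers it was -0.26 in KI-571 and -0.34 in KI-FL mice. Pvalb is also 1 of the 7 interneuron markers, and how far these cells take part in the values was not tested.

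The 12 tested messages of the mitochondrial genome had medians of 0.09, 0.19 and 0.14, and of 0.06 in KI-FL mice without replicate 4. Abundant ones such as mt-Co1, at 16680 CPM in WT and 16890 CPM in all KI mice, lay near 0. The scarcer mt-Nd4l (0.545 CPM in WT and 2.05 CPM in all KI mice, log2 fold change 1.87, adjusted p = 0.0913 by edgeR, 0.0377 without the low-count filter and 0.00422 by DESeq2) and mt-Atp6 (10.1 and 21.6 CPM, log2 fold change 1.08, adjusted p = 0.153 by edgeR and 0.0491 without the filter) had higher means in KI mice. Near-identical copies of these genes lie in the nuclear genome, so that counts this far below that of mt-Co1 are uncertain.

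**Figure D5:**
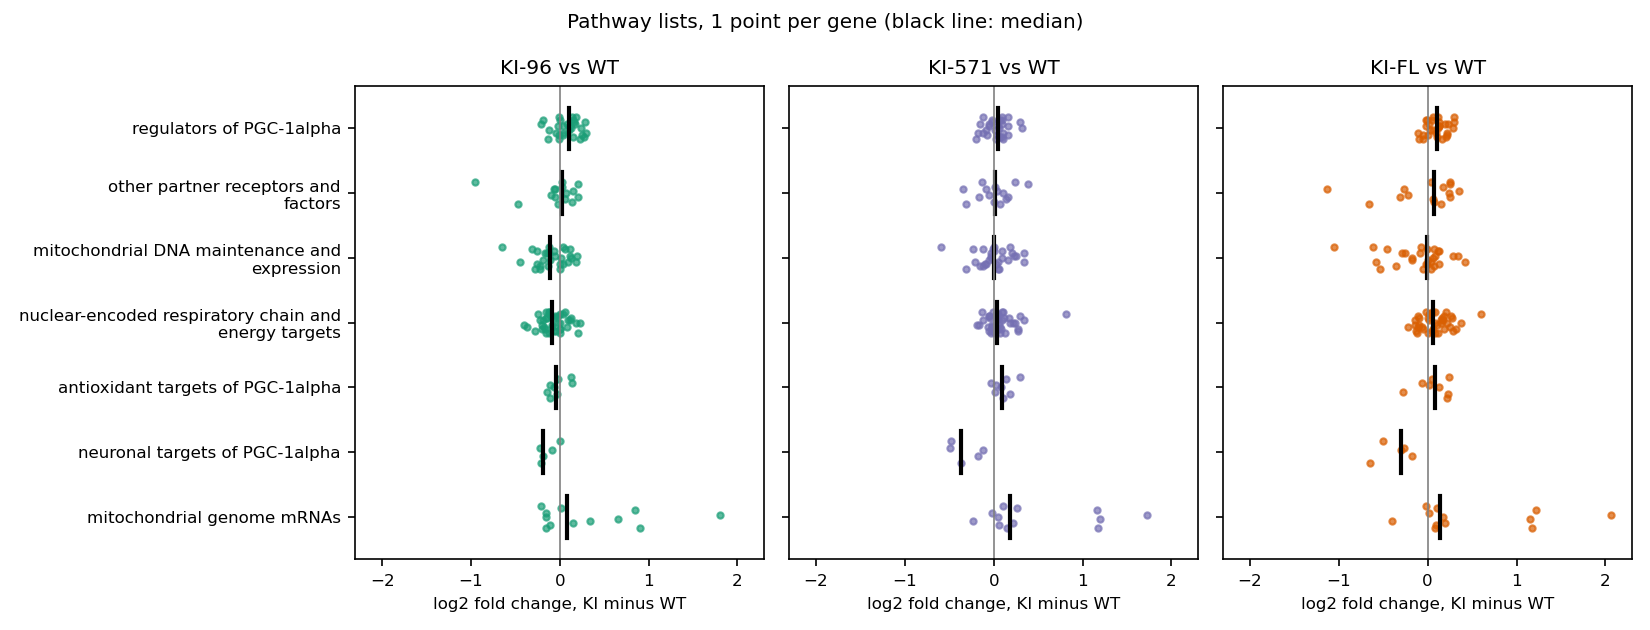
Log2 fold change against WT of each tested gene of the 7 pathway lists in the KI-96, the KI-571 and the KI-FL mice (horizontal axes, 1 point per gene, black lines for medians). The neuronal targets lie below 0 in KI-571 and KI-FL mice, with medians of -0.37 and -0.30, and the other lists lie on both sides of 0.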

How the data were processed

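RNA of 19 striata was measured by RNA-seq. The authors deposited raw counts per gene: reads were trimmed with BBduk, aligned to GRCm38 with STAR and counted with HTSeq (versions, strand setting and annotation not given in the sources used here). The 4 other columns of per-sample values in the deposited table match no labelled sample and were not used. The 5 summary lines of HTSeq, such as reads without a feature, stayed out of library sizes and tests. The line for reads without a feature held 11.1% to 24.2% of each library. The study's methods name a sacrifice batch as covariate, which is in no label, so it was not fitted here. They also state the removal of a WT sample that is not named, and no labelled WT library was left out of the main model.

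Counts were tested with edgeR 4.0.16 in R 4.3.3 by the quasi-likelihood F-test (TMM, filterByExpr with a minimum count of 10 and total of 15, all 19 mice in 1 model with a term per genotype). P-values were adjusted by Benjamini-Hochberg over 18521 tested genes, at 0.05. Log2 CPM used a prior count of 2. Ppargc1a was also tested by exact permutation. Exon lengths came from GENCODE for GRCm38, where all 10 members matched, and promoters from RefSeq. Alternatives were DESeq2 1.42.0, its size factors, no filter, Xist as a covariate, WT replicates 1 to 4 alone, only the groups compared, a replicate block, each mouse left out, and 3 mice high in choroid plexus markers left out (chosen after seeing the data). Scripts were tested on simulated counts.

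The members and all gene lists were chosen with earlier results of these data known. Named are all members, the 5 genes closest to Ppargc1a, and from each pathway list any gene called in the main fit and the 2 with the smallest p in all KI against WT; mt-Co1 was named after its values were seen. No mice looked like 1 library deposited more than once, since the smallest chi-square per degree of freedom between mice of a genotype was 7.78.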

Additional observations from a re-analysis of the deposited data

Results flagged for a closer look

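In 3 of the 40 groups tested (10 members in 4 genotypes, with 7 WT or 4 KI mice each), 1 mouse lay far from the others, and in each case it was KI-FL replicate 4. It had 30.02 CPM of Ppargc1a against 42.4 to 44.3 CPM in the other KI-FL mice, 45.62 CPM of Tfam against 30.01 to 32.1 CPM, and 31.53 CPM of Tfb2m against 17.8 to 19.6 CPM. The gap to the nearest mouse was 0.869 of the whole range for each gene, above Dixon's 95% critical value for 4 mice. Chance flags about 1 in 20 groups. The same mouse had 3186 tested genes at 0 reads, against 222 at most in any other, and its part in these 3 values was not tested.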

How the results depend on the processing

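No member was called under any alternative in any of the 7 comparisons. Of 40 log2 fold changes of 0.1 or more, over 1080 alternative values, 6 changed sign: Pprc1 in KI-571 against WT with WT replicates 1 to 4 alone (0.04) and with the replicate block (0.039), Tfb2m in KI-96 against KI-571 with Xist as a covariate (0.002), Ppargc1b in KI-571 against WT without the 3 mice high in choroid plexus markers (0.032), and Tfb2m when each mouse was left out in turn, with ranges of -0.037 to 0.272 in KI-FL against WT and -0.264 to 0.045 in KI-571 against KI-FL. The signs of Tfb2m turned without KI-FL replicate 4. Of the 30 values under 0.1, 22 changed sign, in 72 of 810 alternative values and up to 0.224 in size. The exact test of Ppargc1a lost its side of 0.05 with WT replicates 1 to 4 alone (-0.283 in KI-571 and -0.28 in KI-FL), and in KI-FL also without KI-FL replicate 4 or without any 1 of WT replicates 4 to 7 (differences from -0.355 to -0.233, within a range of -0.421 to -0.233 over all mice left out in turn). Same-numbered mice are different animals and did not deviate together (mean r from -0.009 to 0.052), and with the replicate block Ppargc1a was at -0.301 in KI-571 and -0.285 in KI-FL against WT. The causes were not tested.

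Counts of genes called depended far more on the setting. In KI-96, KI-571, KI-FL and all KI mice against WT they were 5, 6, 36 and 10 in the main model, 28, 115, 509 and 285 by DESeq2, 23, 78, 85 and 140 without the filter, 0, 1, 0 and 0 with the replicate block, and 1 to 10, 0 to 46, 0 to 159 and 3 to 173 with each mouse left out. Xist as a covariate gave 0, 6, 0 and 0, WT replicates 1 to 4 alone 0 in each, and only the groups compared 0, 55, 336 and 10. At this depth and number of mice the 95% interval of Ppargc1a in KI-96 against WT ran from -0.40 to 0.09. Among pathway genes, edgeR also called Stk11, Lonp1, Cox4i1, mt-Nd4l, mt-Co2 and mt-Atp6 in all KI mice without KI-96 replicate 3. That setting gave the 173 calls over all genes. Without KI-571 replicate 4 it called Stk11, Crtc1, Lonp1, Pnpt1 and mt-Nd4l in all KI mice.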
